A study of Sus scrofa with 16 samples.

Results

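The known miRNAs of the follicular ovary were compared between 4 high-fecundity (FH) and 4 low-fecundity (FL) sows. All were Canadian Large White pigs, 1 small RNA library was made from the ovary of each sow, and all 8 ovaries were taken on day 20 of the estrous cycle (follicular phase). The sows were grouped in the study by the total number of piglets born. Another 4 high-fecundity (LH) and 4 low-fecundity (LL) sows were sampled on day 14 (luteal phase) and serve here only as a second phase beside the follicular values. The deposited table held 1940 miRNA entries, of which 216 were known pig miRNAs and 1724 were predicted from the reads. The 203 known miRNAs described here are those that the study did not draw as nodes of its interaction networks, and 13 known miRNAs were set aside by that rule. Of the 203, 179 had enough counts to be tested and 24 did not. The study built its networks from miRNAs that were differentially expressed in these libraries, so the set left out was not independent of the values.

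MicroRNAs are short RNAs that guide a silencing complex to messenger RNAs. Pairing is set mainly by the seed, the bases near the 5′ end, so miRNAs with the same seed form a family with largely shared targets. In the follicular phase the ovary holds growing antral follicles, in which granulosa and theca cells make estradiol, beside stroma, vessels and surface epithelium. Whole ovary was sequenced, so fewer cells of a type and less of a miRNA per cell cannot be told apart in any value below.

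Predicted entries carried the seeds of the families of ssc-miR-34c and ssc-miR-429, which were among the known miRNAs with the largest fold changes, and their sequences are shown for that reason. The miR-34 family is abundant in ciliated epithelium, and the miR-200 family, to which ssc-miR-429 belongs, maintains epithelial identity by restraining ZEB transcription factors. Each mature sequence is printed 5′ to 3′ with its seed (bases 2 to 8) in capitals, as listed in the study's prediction on Sscrofa10.2.
NovelmiRNA-240: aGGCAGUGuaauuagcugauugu
NovelmiRNA-1528: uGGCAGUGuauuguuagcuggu
NovelmiRNA-388: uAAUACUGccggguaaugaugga
NovelmiRNA-150: uAACACUGucugguaaagaug
The seed of NovelmiRNA-240 and NovelmiRNA-1528 is the one shared by the miR-34 and miR-449 families. The seed of NovelmiRNA-388 is that of miR-200b, miR-200c and miR-429, and the seed of NovelmiRNA-150 is that of miR-200a and miR-141. NovelmiRNA-240 was placed at chr9:44167439-44167498, NovelmiRNA-1528 at chr16:36468129-36468191, NovelmiRNA-388 at chr5:66194131-66194194 and NovelmiRNA-150 at chr5:66193719-66193782, all on the minus strand. NovelmiRNA-337, with the same mature sequence as NovelmiRNA-1528, had identical counts in the 8 libraries. Among the 115 tested predicted entries with a listed sequence, 4 carried the seed GGCAGUG, 2 carried AAUACUG and 1 carried AACACUG.

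Total counts ran from 13221020 to 37194836 in FH and from 8998496 to 24892715 in FL. The 203 miRNAs took 96.5% to 98.9% of the counts of a library. Levels are given as counts scaled to library size (CPM) after TMM normalization, a factor that equalizes the bulk of miRNAs between libraries. A count of 0 allows up to 0.0807 to 0.333 CPM, depending on the library (3 counts, before the TMM factor, for counting error only). FL2 and FL4 stood apart, with TMM factors of 1.39 and 1.68 beside 0.699 to 1.06 in the other 6 libraries. In FL2, FL3 and FL4 a smaller share of raw reads had passed cleaning than in any FH library, and 3 of the 4 FL sows were of lower parity than every FH sow, by the study's records. Both run partly with the groups. The spread between sows was wider in FL: the SD of log2(CPM + 1) had a median of 0.382 over the 179 tested miRNAs in FH and 0.627 in FL, and it was larger in FL for 138 of them (77.1%). FL1 and FL3 alone had a median SD of 0.289, but an SD of 2 libraries tends to be smaller than an SD of 4. It cannot be set against the values above. FL4 was the highest of the 8 libraries for 43 of the 179 and the lowest for 38, and FL2 the highest for 30 and the lowest for 43.

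An edgeR quasi-likelihood test was run on all 307 miRNAs that passed the count filter. A miRNA was called differentially expressed where P before adjustment was below 0.05 and the log2 fold change was 1 or more in either direction. Of those 307, 19 (6.19%) were past the threshold, 17 up in FL (5.54%) and 2 down (0.651%). Of the 179 known miRNAs described here, 10 were past it (5.59%), so their share was near that of the whole table. In FL, 9 rose, namely ssc-miR-122, ssc-miR-190b, ssc-miR-34c, ssc-miR-138, ssc-miR-429, ssc-miR-215, ssc-miR-194a, ssc-miR-296-3p and ssc-miR-296-5p, and 1 fell, ssc-miR-20a. Another 3 had a P under 0.05 with a smaller fold change (ssc-miR-103, ssc-miR-107 and ssc-miR-320), which made 13 of 179 (7.26%) beside 22 of 307 (7.17%) in the table. After Benjamini-Hochberg adjustment in edgeR none of the 179 was under 0.05, beside 2 of 307 (0.651%), both predicted entries. DESeq2 with the same filter put 4 of the 179 under an adjusted 0.05, beside 11 of the 301 entries of the whole table that had a P. The 4 were ssc-miR-190b (DESeq2 adjusted p = 0.00268), ssc-miR-34c and ssc-miR-122 (both 0.00277) and ssc-miR-429 (0.0127). It put 22 of the 179 under an unadjusted 0.05, for which the count over the whole table is not given here. Each log2 fold change below is FL over FH with its standard error (SE), from 4 sows a group. The median over all 307 was 0.12 and over the 179 it was 0.03. Of the 10 called miRNAs, 0 stayed past the threshold without FL2 and FL4 together, when parity was adjusted for, or when the share of reads passing cleaning was adjusted for, but the fold changes differed between these fits. Adjusted for parity, the log2 fold changes of ssc-miR-34c (5.42), ssc-miR-190b (5.49), ssc-miR-429 (4.57), ssc-miR-138 (1.73), ssc-miR-215 (1.96) and ssc-miR-194a (2.09) stayed near the values given below and only P was lost, while those of ssc-miR-122 (2.37), ssc-miR-296-3p (0.72) and ssc-miR-20a (-0.78) were smaller. Adjusted for the share of reads passing cleaning, they were 0.48 for ssc-miR-34c, 0.23 for ssc-miR-194a, 0.27 for ssc-miR-296-3p, 0.65 for ssc-miR-215, 1.14 for ssc-miR-429, 1.86 for ssc-miR-190b, 1.97 for ssc-miR-122, 1.34 for ssc-miR-138 and -0.58 for ssc-miR-20a. With each of the 8 sows left out in turn, ssc-miR-122, ssc-miR-190b and ssc-miR-34c stayed past the threshold in 8 of 8 fits, ssc-miR-429 in 6, ssc-miR-138 and ssc-miR-215 in 5, both arms of ssc-miR-296 in 3, and ssc-miR-194a and ssc-miR-20a in 2.

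**Figure D1:**
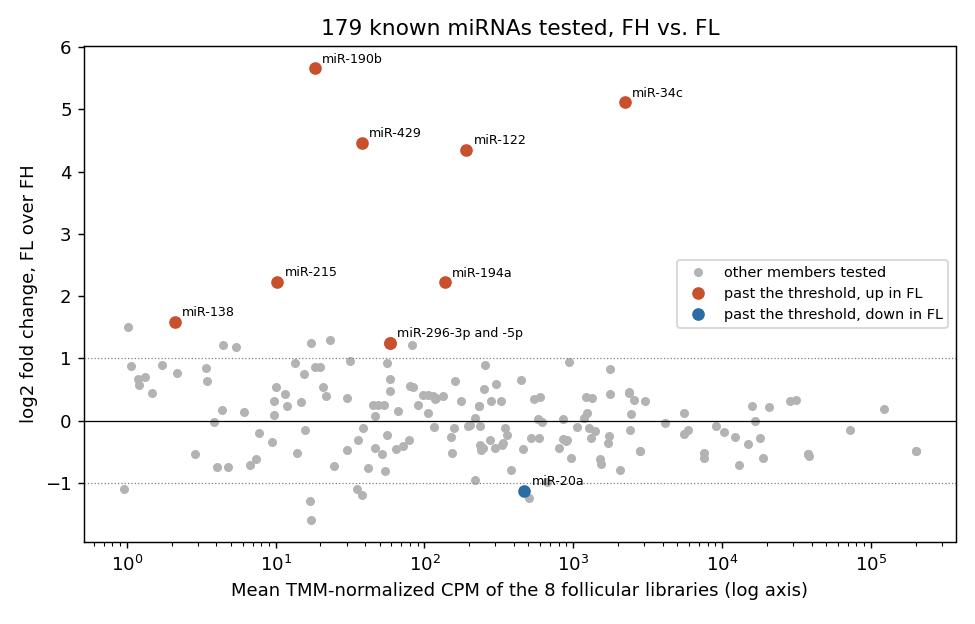
Each point is 1 of the 179 known miRNAs tested, with its mean level over the 8 follicular libraries (TMM-normalized CPM, log axis) and its log2 fold change (FL over FH). The 9 miRNAs up in FL past the threshold lie between 1.26 and 5.66, ssc-miR-20a lies at -1.13, and dotted lines mark a log2 fold change of 1 in each direction.

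The 3 largest fold changes, in ssc-miR-190b, ssc-miR-34c and ssc-miR-429, rested on the same pair of libraries. ssc-miR-34c, a p53-responsive miRNA that is abundant in multiciliated cells and in the testis, was at 73.0, 188, 130.1 and 109 CPM in FH1 to FH4 and at 58.4, 6028, 69.7 and 11174 CPM in FL1 to FL4. FL2 and FL4 were far above every FH sow, whereas FL1 and FL3 were below all of them. Its log2 fold change was 5.12 ± 1.68 (SE, edgeR P = 0.0164, adjusted p = 0.585), and by the exact two-sided permutation test p was 0.429, for which the smallest value possible is 0.0286. ssc-miR-429 was at 1.58, 3.90, 3.99 and 3.67 CPM in FH and at 3.07, 34.9, 1.95 and 250.4 CPM in FL. Again only FL2 and FL4 lay above the FH range, with a log2 fold change of 4.46 ± 1.55 (edgeR P = 0.0208, adjusted p = 0.585, exact permutation p = 0.371). ssc-miR-190b, whose gene lies beside TPM3 in RefSeq (Sscrofa11.1), was at 0.678, 1.08, 0.506 and 0.588 CPM in FH and at 0.966, 19.8, 0.311 and 123 CPM in FL. FL2 and FL4 were above all FH sows and FL3 below them, and the log2 fold change was 5.66 ± 1.80 (edgeR P = 0.0141, adjusted p = 0.585, exact permutation p = 0.286).

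Without FL2 and FL4 the log2 fold changes turned to -0.997 for ssc-miR-34c, -0.43 for ssc-miR-429 and -0.18 for ssc-miR-190b. With only FL2 or only FL4 left out, the value for ssc-miR-34c stayed at 3.98 or more, that for ssc-miR-190b at 3.24 or more and that for ssc-miR-429 at 1.97 or more. The predicted entries printed above were high in the same libraries. NovelmiRNA-240 ranged from 9.94 to 24.1 CPM in FH and was at 8.07, 834, 10.4 and 1519 CPM in FL1 to FL4. NovelmiRNA-1528 ranged from 5.99 to 33.5 CPM in FH and was at 16.6, 288, 4.12 and 1982 CPM in FL. NovelmiRNA-388, at 0 to 20.0 CPM in FH, was at 12.5, 247, 8.17 and 1564 CPM in FL. NovelmiRNA-150, at 7.57 to 18.6 CPM in FH, was at 9.55, 120, 0 and 576 CPM in FL. In all 4 of these entries FL2 and FL4 were far above the FH range and FL1 and FL3 were not. The 4 were chosen after their values were seen. Levels of NovelmiRNA-1654 and NovelmiRNA-800, tested entries with the seeds GGCAGUG and AAUACUG, are not given here. Of the list of oviduct or ciliated and tubal epithelium, 5 miRNAs were tested and 2 rose (ssc-miR-34c and ssc-miR-429), with a median log2 fold change of 0.56 beside 0.12 over all miRNAs tested. Its other members were ssc-miR-205, a marker of stratified and basal epithelium, and ssc-miR-182 and ssc-miR-183, which come from 1 sensory-organ cluster. ssc-miR-205 was at 28.2 to 58.3 CPM in FH and at 26.8, 24.3, 33.8 and 105 CPM in FL. ssc-miR-182 reached 214.3 CPM in FL4 and 68.4 CPM in FL2 beside 29.3 to 124 CPM in FH. None of these 3 was past the threshold, with log2 fold changes of 0.07, 0.56 and 0.54, and 5 of 5 in the list were below 0 without FL2 and FL4. The summed level of the list was 225 to 279 CPM in FH, 165 and 147 CPM in FL1 and FL3, and 6172 and 11804 CPM in FL2 and FL4. The part of tubal or other ciliated epithelium in these increases was not tested.

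**Figure D2:**
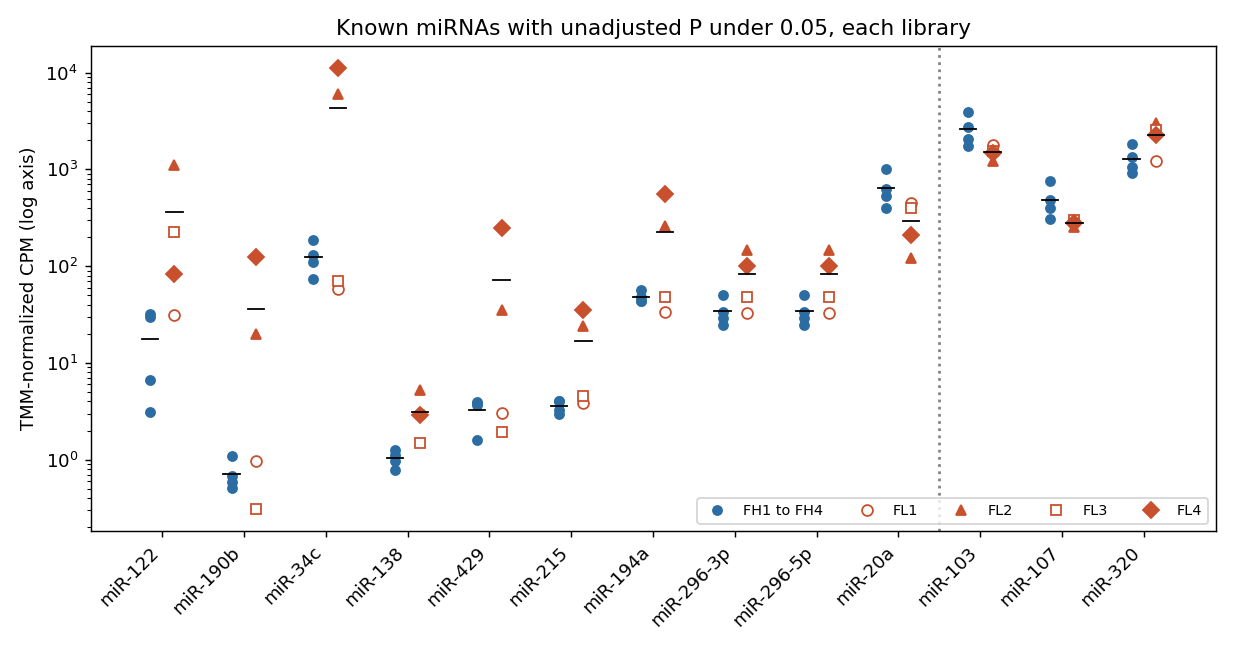
TMM-normalized CPM (log axis) of the 10 known miRNAs past the threshold and, right of the dotted line, the 3 with a P under 0.05 and a smaller fold change. Each point is 1 sow, blue for FH and orange for FL with filled marks for FL2 and FL4, and black bars are group means. FL2 and FL4 carry most of the increases, at 6028 and 11174 CPM for ssc-miR-34c beside 58.4 and 69.7 CPM in FL1 and FL3.

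Of the 4 miRNAs on the liver and gut list 3 rose, and for some of them a further FL sow lay above the FH range. ssc-miR-122, the predominant miRNA of hepatocytes, was at 29.6, 3.14, 6.71 and 32.0 CPM in FH and at 31.5, 1120.2, 227 and 83.0 CPM in FL. FL2, FL3 and FL4 were above every FH sow, and FL1 was within the FH range. The log2 fold change was 4.35 ± 1.33 (edgeR P = 0.0117, adjusted p = 0.585, exact permutation p = 0.0571), the smallest P among the 179. Its range over the fits that each lacked a sow was 2.66 to 4.89. Without FL2 and FL4 it was 2.81, just short of the threshold in P. ssc-miR-215 and ssc-miR-194a belong to paired clusters that are enriched in intestinal epithelium and liver, and in RefSeq the ssc-miR-215 gene lies beside MIR194B within IARS2 and the ssc-miR-194a gene beside MIR192. ssc-miR-215 was at 2.99, 3.25, 4.05 and 4.06 CPM in FH and at 3.81, 23.9, 4.59 and 35.3 CPM in FL. FL3 was just above the FH range and FL2 and FL4 well above it, with a log2 fold change of 2.23 ± 0.774 (edgeR P = 0.0210, adjusted p = 0.585, exact permutation p = 0.0857). ssc-miR-194a was at 43.9, 56.7, 48.2 and 43.8 CPM in FH and at 33.4, 260.2, 48.0 and 559 CPM in FL, so that FL1 lay below the FH range and FL2 and FL4 above it. Its log2 fold change was 2.22 ± 0.866 (edgeR P = 0.0339, adjusted p = 0.61, exact permutation p = 0.371). Without FL2 and FL4 it was -0.28 for ssc-miR-194a and 0.18 for ssc-miR-215. The last tested member of the list, ssc-miR-194b-5p, did not exceed 3.94 CPM (log2 fold change 0.44, not past the threshold). Adjusted for the share of reads passing cleaning, it was past the threshold in the opposite direction, at -3.89. In all, 3 of 4 rose and the median was 2.23, whereas without FL2 and FL4 it was -0.05 and 2 of 4 were above 0. The summed level of the list was 60.4 to 80.5 CPM in FH and 68.7, 1407, 280.1 and 681 CPM in FL1 to FL4. A contribution of liver or gut RNA was not tested.

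ssc-miR-138, a miRNA that is prominent in neurons and also restrains hypoxia signalling, showed no overlap between the groups. It was at 0.791, 0.974, 1.27 and 1.12 CPM in FH and at 2.96, 5.29, 1.48 and 2.86 CPM in FL. All 4 FL sows were above all 4 FH sows, although at levels of a few CPM. The log2 fold change was 1.59 ± 0.526 (edgeR P = 0.0169, adjusted p = 0.585), and the exact permutation p of 0.0286 is the smallest that 4 against 4 sows can give. It was 1.04 without FL2 and FL4, where it did not pass the test, and 1.21 to 1.91 with each sow left out in turn. ssc-miR-296-3p and ssc-miR-296-5p, the arms of a hairpin that lies between NPEPL1 and the imprinted gene GNAS in RefSeq, had identical counts in the 8 libraries and count as 1 measurement. Both were at 49.9, 34.0, 24.8 and 29.0 CPM in FH and at 32.8, 148, 47.5 and 100.04 CPM in FL. Only FL2 and FL4 were above the FH range, and the log2 fold change of 1.26 ± 0.527 (edgeR P = 0.0453, adjusted p = 0.644, exact permutation p = 0.143) was 0.19 without them. ssc-miR-320, which is made from a short hairpin without Drosha cleavage and whose gene overlaps POLR3D in RefSeq, was at 909.7, 1333, 1047 and 1825 CPM in FH and at 1229, 3028, 2558 and 2249 CPM in FL. FL2, FL3 and FL4 were above every FH sow and FL1 was within their range (log2 fold change 0.83 ± 0.344, edgeR P = 0.0437, adjusted p = 0.644, exact permutation p = 0.0857). It was past the threshold with library size only (1.29), without FH4 (1.16) and without FL1 (1.15). The value was 0.53 without FL2 and FL4 and 0.33 when adjusted for the share of reads passing cleaning. Just outside the P threshold lay ssc-miR-326, at 10.16 to 17.6 CPM in FH and 11.3, 35.7, 19.3 and 66.0 CPM in FL (log2 fold change 1.30, edgeR P = 0.0524, adjusted p = 0.644, exact permutation p = 0.143).

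ssc-miR-20a was the only known miRNA here that fell past the threshold. It belongs to the proliferation-associated miR-17-92 cluster, and its gene lies between MIR19A and MIR19B-1 in RefSeq. It was at 529.6, 400.4, 1012 and 631 CPM in FH and at 447, 120.5, 401 and 210.4 CPM in FL. FL2 and FL4 were below every FH sow, and FL1 and FL3 overlapped the lowest FH sows. The log2 fold change was -1.13 ± 0.483 (edgeR P = 0.0487, adjusted p = 0.644, exact permutation p = 0.0857), -0.65 without FL2 and FL4, and -0.97 (edgeR P = 0.0567) when scaled by library size only. Among the 9 tested miRNAs of this cluster and its paralogs, 8 were below 0 and 1 was called, with a median of -0.31, but scaled by library size only 4 were below 0 and the median was 0.01. ssc-miR-92a, another cluster member, was at 1561, 1755, 1991 and 2405 CPM in FH and at 2254, 1240.2, 1589.6 and 948 CPM in FL (log2 fold change -0.35, not past the threshold).

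ssc-miR-103 and ssc-miR-107, a pair of metabolic miRNAs encoded in introns of the pantothenate kinase genes PANK3 and PANK1, were lower in FL by similar amounts and with little spread among the FL sows. ssc-miR-107 was at 754, 395, 488 and 308 CPM in FH and at 289, 252, 297 and 282 CPM in FL. Every FL sow was below every FH sow (exact permutation p = 0.0286, the smallest possible), with a log2 fold change of -0.80 ± 0.305 (edgeR P = 0.0316, adjusted p = 0.606). ssc-miR-103 was at 3958, 2082, 2719 and 1754 CPM in FH and at 1804, 1224, 1555 and 1461 CPM in FL. FL2, FL3 and FL4 were below the FH range and FL1 just inside it (log2 fold change -0.80 ± 0.292, edgeR P = 0.0264, adjusted p = 0.591, exact permutation p = 0.0571). Neither reached a log2 fold change of 1, in these data or with any sow left out. Without FL2 and FL4 the values were -0.69 for ssc-miR-103 and -0.77 for ssc-miR-107, and scaled by library size only they were -0.51 and -0.48, none of them under an unadjusted P of 0.05. These entries are close in sequence, and how reads were divided between them is not given in the sources used here.

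**Figure D3:**
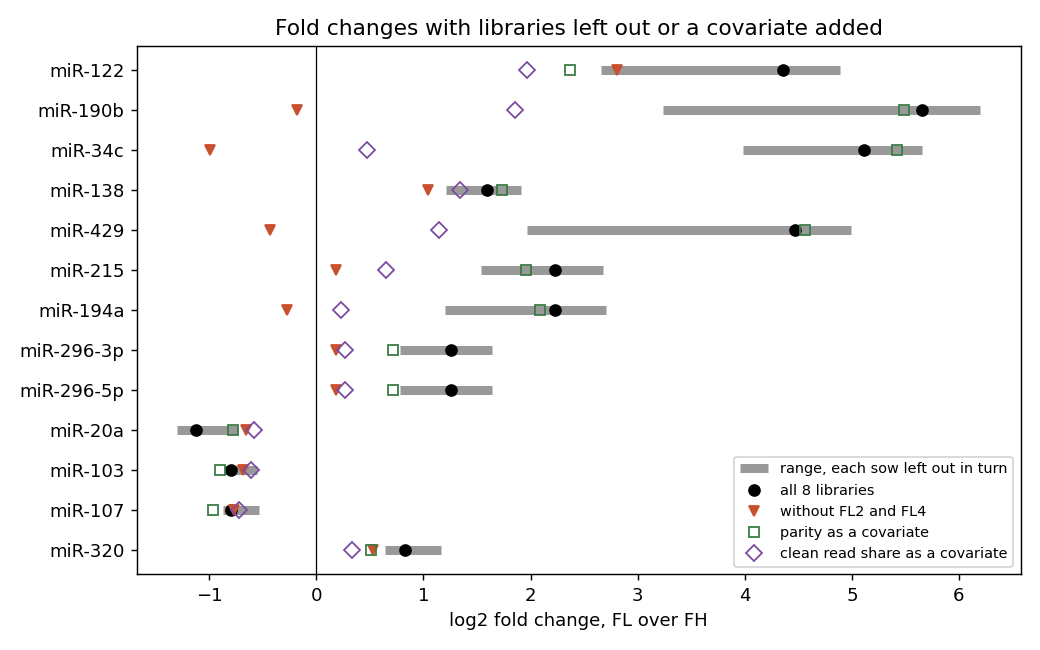
The log2 fold change (FL over FH) of the 13 known miRNAs with a P under 0.05, from all 8 libraries (black), with each sow left out in turn (grey range), without FL2 and FL4 (triangles), and adjusted for parity (squares) or for the share of reads that passed cleaning (diamonds). Without FL2 and FL4 ssc-miR-34c lies at -0.997 and ssc-miR-122 at 2.81, whereas ssc-miR-107 stays at -0.77.

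A stricter view of the spread asks for which miRNAs no FL sow overlapped an FH sow. This held for 10 of the 179 (5.59%), beside 16 of all 307 tested (5.21%), and 5 were higher and 5 lower in FL (2.61% of the 307 in each direction). Besides ssc-miR-138, those higher were ssc-miR-191, ssc-miR-505, ssc-miR-7142-5p and ssc-miR-7136-5p. For every miRNA without overlap the exact permutation p is 0.0286 by construction, so it adds nothing to the lack of overlap. ssc-miR-191, one of the steadier miRNAs between tissues and often used as a reference, was at 1612 to 2197 CPM in FH and 2319 to 3438 CPM in FL (log2 fold change 0.46 ± 0.209, edgeR P = 0.0578, adjusted p = 0.65). ssc-miR-505 was at 45.7 to 50.1 CPM in FH and 53.2 to 67.7 CPM in FL. ssc-miR-7142-5p was at 8.01 to 11.2 CPM and 11.5 to 14.5 CPM, and ssc-miR-7136-5p at 0.758 to 1.06 CPM and 1.12 to 1.99 CPM. Besides ssc-miR-107, those lower were ssc-miR-15a, a miRNA that restrains BCL2 and cyclins, ssc-miR-545-5p, ssc-miR-628 and ssc-miR-4334-3p. ssc-miR-15a was at 30.5 to 40.1 CPM in FH and 21.1 to 28.2 CPM in FL (log2 fold change -0.47). ssc-miR-545-5p was at 4.98 to 6.93 CPM and 2.48 to 4.32 CPM, and ssc-miR-628 at 6.95 to 11.04 CPM and 3.28 to 6.88 CPM. ssc-miR-4334-3p was at 560.0 to 576 CPM in FH and 370.1 to 537 CPM in FL (log2 fold change -0.29). Apart from ssc-miR-138, none of these was past the threshold. Scaled by library size only, 3 of the known miRNAs had no overlap, and the share over all miRNAs tested is not given for that scaling.

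The most abundant miRNAs showed no call. Both arms of ssc-miR-143, which comes from a cluster expressed in smooth muscle and stroma, had identical counts, which ranged from 168237 to 379421 CPM in FH and were 252900.0, 103387, 199141 and 111659 CPM in FL. FL2 and FL4 lay below the FH range and the others within it (log2 fold change -0.49 ± 0.394). ssc-miR-99a, whose family restrains mTOR signalling, was at 84140.3 to 136225 CPM in FH and at 217471, 132107, 120776 and 52000.1 CPM in FL, with FL1 above and FL4 below every other library. ssc-miR-26a was also highest in FL1 and lowest in FL4, at 144999, 30429, 82479.8 and 16735 CPM beside 48437 to 97790.1 CPM in FH. ssc-miR-21, an abundant anti-apoptotic miRNA that luteinizing hormone raises in granulosa cells, was at 81512, 32258, 45838 and 24599 CPM in FH and 38299, 22693, 30355 and 32608 CPM in FL (log2 fold change -0.57 ± 0.388). ssc-miR-148a-5p stood out in a single sow, with 55840.2 CPM in FL1 beside 6834 to 21165 CPM in the other 7 libraries. ssc-miR-199a-5p and ssc-miR-199b-5p were nearly identical in counts (both -0.54 ± 0.417), and ssc-miR-145-5p and ssc-let-7c had log2 fold changes of 0.33 and 0.32. For all these abundant miRNAs the 95% confidence interval of the log2 fold change included 0.

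Several families had fold changes of 1 sign without a call. All 5 tested members of the family of miR-15, miR-16, miR-195 and miR-497, which slows the cell cycle, were below 0 with a median of -0.46 (2 of 5 were above 0 when scaled by library size only). The lowest value among them was that of ssc-miR-195, at 830.4 to 1543 CPM in FH and 1163, 524, 1082 and 309 CPM in FL. All 6 members of the clusters of miR-23, miR-27 and miR-24, which act in vessels and lipid metabolism, were below 0 with a median of -0.49 (2 of 6 were above 0 when scaled by library size only). The 6 include 2 entries of miR-24, ssc-miR-24-1-5p (-0.49) and ssc-miR-24-2-5p. How reads were divided between these 2 is not given, so they may not be separate measurements. ssc-miR-27b-5p was the lowest at -0.71 ± 0.367, with 10845 to 22299 CPM in FH and 16047, 6230.3, 10546 and 6748 CPM in FL. In the opposite direction, all 5 tested miRNAs of the imprinted DLK1-DIO3 cluster were above 0 under every scaling tried, with a median of 0.85. Of these, ssc-miR-381 was at 1078, 588, 531 and 360.3 CPM in FH and 1359.5, 709, 923 and 1903 CPM in FL, with FL1 and FL4 above the FH range (log2 fold change 0.94 ± 0.435, edgeR P = 0.0643, exact permutation p = 0.0857). All 4 miRNAs of the miR-181 family, regulators of lymphocyte signalling, were above 0 under every scaling, with a median of 0.40. ssc-miR-181d-5p was at 200.2 to 289 CPM in FH and 315, 427, 263 and 439.6 CPM in FL (log2 fold change 0.59 ± 0.264, edgeR P = 0.0557, exact permutation p = 0.0571). The let-7 family, differentiation-associated miRNAs, was divided, with 2 of 7 above 0 and a median of -0.26, and so was the miR-30 family, with 2 of 5 above 0 and a median of -0.04 (with library size only 3 of 7 and 5 of 5). No member of these families was past the threshold in the fit reported here, but ssc-miR-381 was with TMM on the known miRNAs (1.03) and ssc-miR-181d-5p with library size only (1.07), and leaving out a single sow (FL1 or FH1) brought ssc-let-7f (-1.29), ssc-miR-376c (1.54) and ssc-miR-432-5p (1.49) past it. With FL2 and FL4 removed the medians were 0.49 for the DLK1-DIO3 cluster, 0.24 for miR-181, -0.21 for the miR-15 family and -0.19 for the clusters of miR-23, and they turned to 0.20 for let-7 (6 of 7 above 0) and 0.02 for miR-30 (3 of 5 above 0). The families or clusters of miR-99 with miR-125, miR-29, miR-148, miR-500, miR-450, miR-221, miR-143, miR-199 and the HOX-locus miR-10 with miR-196 also held no call, with medians from -0.74 to 0.24, or -1.33 to 0.55 without FL2 and FL4. Both ends of the latter range are from lists with more miRNAs tested in that fit (HOX-locus 5 instead of 4, miR-29 3 instead of 2). They cannot be set against the medians of the main fit. The median of miR-221 and miR-222 turned from 0.24 to -0.67. Both arms of ssc-miR-221 had identical counts, so this median is the value of 1 measurement, ssc-miR-221. Scaling by library size only moved the median of all 307 miRNAs from 0.12 to 0.44, with a mean shift of 0.38 on the log2 scale.

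The ovary's own miRNAs and those of other tissues were read from fixed lists. ssc-miR-202-5p, a gonad-enriched miRNA, was detected in every library, at 1013, 257, 1169 and 381 CPM in FH and 624, 248, 269 and 47.3 CPM in FL. FL4 was the lowest by a wide margin and FL2 was just below the FH range (log2 fold change -1.25 ± 0.784, edgeR P = 0.152, exact permutation p = 0.171). In the main edgeR fit 0 of the 7 tested miRNAs of the gonad and granulosa cell list were past the threshold. None of them was under an unadjusted P of 0.05 in that fit. Adjusted for parity, ssc-miR-212 of that list was past the threshold, at a log2 fold change of -2.74. The median of the list was -0.40, or -0.71 without FL2 and FL4. ssc-miR-378, which targets aromatase, was at 658 to 2019 CPM in FH and 1413 to 1595 CPM in FL (log2 fold change 0.37), and ssc-miR-212 and ssc-miR-132, gonadotropin-responsive miRNAs of 1 cluster, had log2 fold changes of -1.29 and -0.40 with FH1 far above the other FH sows at 71.2 and 227 CPM. The list's summed level was 1327 to 2761 CPM in FH and 1847 to 2270.1 CPM in FL. The list of skeletal or cardiac muscle held no call, with 4 of 4 tested members below 0 and a median of -0.48 (3 of 4 were below 0 when scaled by library size only, and 2 of 4 without FL2 and FL4). Its main member ssc-miR-1, found in all muscle, was at 1249.7 to 2862 CPM in FH and at 2799.6, 198, 1309 and 369 CPM in FL. FL2 and FL4 were far below every FH sow and FL1 and FL3 were within the range (log2 fold change -0.70 ± 0.776). The defining miRNA of neurons, ssc-miR-124a, was at 0 in 7 of 8 libraries, and ssc-miR-208b of cardiac muscle likewise, with 2.28 CPM in FL4. ssc-miR-129b, a neuronal miRNA, was at 28.7 to 82.7 CPM in FH and 68.5, 89.0, 70.04 and 235 CPM in FL (log2 fold change 1.22 ± 0.565, edgeR P = 0.0632, exact permutation p = 0.0857). The other tested members of the neural list, ssc-miR-9 and ssc-miR-219, had log2 fold changes of 0.47 and -0.02. ssc-miR-137 of that list, not tested, was at 0.616 to 1.13 CPM in FH and 0.682, 0, 0.467 and 0 CPM in FL. Summed levels of the neural list were 83.6 to 139 CPM in FH and 127 to 369 CPM in FL, of leukocytes 1518 to 2172 CPM and 1416 to 2756 CPM, and of erythrocytes 24.8 to 62.0 CPM and 36.8 to 105 CPM. The 3 neural, 5 leukocyte and 2 erythrocyte miRNAs tested held no call, with medians of 0.47, 0.31 and 0.67, although ssc-miR-129b was past the threshold in DESeq2, with library size only and with TMM on the known miRNAs, and ssc-miR-144 without FL3. The leukocyte median is the value of ssc-miR-142-5p, which was listed at 0 in FL1. These medians were -0.11, 0.14 and 0.15 without FL2 and FL4. In that fit 4 neural miRNAs were tested instead of 3, so the neural medians are not of the same miRNAs.

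**Figure D4:**
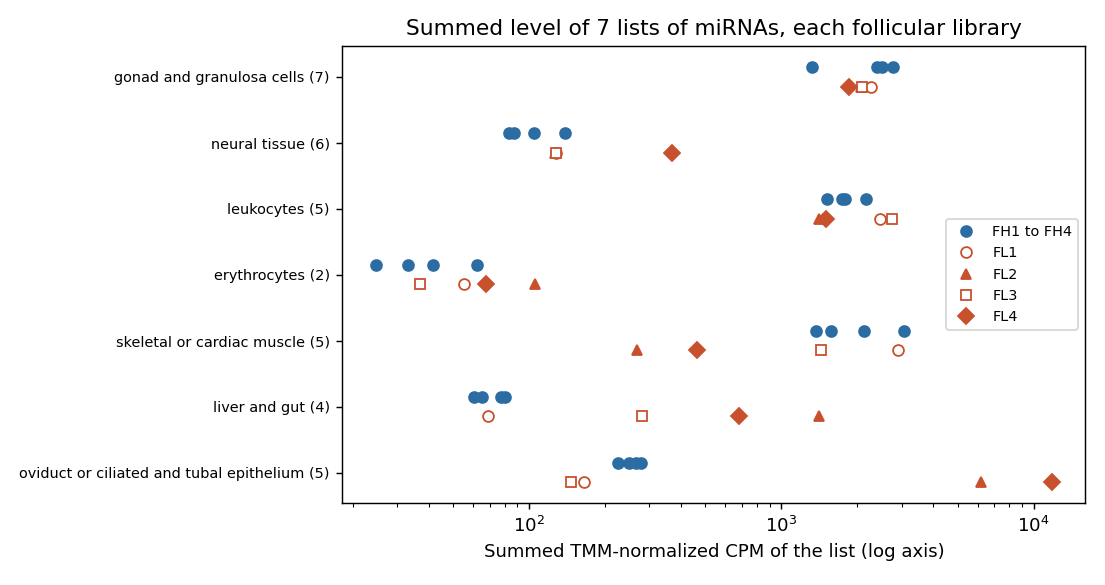
Summed TMM-normalized CPM (log axis) of 7 lists of miRNAs in each follicular library, with the number of miRNAs on the list in brackets, blue for FH and orange for FL. FL2 and FL4 stand at 6172 and 11804 CPM for the epithelial list beside 225 to 279 CPM in FH, and at 268 and 463 CPM for the muscle list beside 1370 to 3053 CPM.

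The luteal sows gave the same fecundity contrast on day 14 (LL over LH), with the 8 luteal libraries normalized among themselves. ssc-miR-34c was at 57.6, 50.0, 121 and 25948 CPM in LH1 to LH4 and at 21.2 to 48.5 CPM in LL. A single high-fecundity library, LH4, therefore held the high level there, and the luteal log2 fold change was -7.63 ± 2.41. LH4 was likewise the highest luteal library for ssc-miR-190b (55.8 CPM beside 0.332 to 0.988 CPM in the other 7) and for ssc-miR-429 (125 CPM beside 1.13 to 21.1 CPM). Over all 16 libraries LH4, FL2 and FL4 were the highest 3 for each of these 3 miRNAs. ssc-miR-194a and ssc-miR-215 peaked instead in a low-fecundity luteal sow, LL4, with 1871 and 505 CPM beside 15.7 to 479 CPM and 1.74 to 31.6 CPM in the other 7, and ssc-miR-122 peaked in LH2 and LH3 with 93.9 and 105 CPM. For ssc-miR-107 the LL and LH sows did not overlap either. The share of all miRNAs without overlap in the luteal phase is not given here. Its LL sows were higher, at 1204 to 1697 CPM beside 376 to 804 CPM, the opposite of its follicular order. The luteal log2 fold change was 1.25 ± 0.277 (edgeR adjusted p = 0.101). ssc-miR-103 was also higher in every LL sow, at 6127 to 8461 CPM beside 3264 to 5642 CPM (0.80 ± 0.228).

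The difference between the phases was tested as an interaction in 1 edgeR model of all 16 libraries. ssc-miR-107 had a difference of -1.95 ± 0.411 between the follicular and the luteal log2 fold change (adjusted p = 0.0693) and ssc-miR-103 of -1.51 ± 0.367 (adjusted p = 0.0813). For ssc-miR-34c it was 12.91 ± 3.08 and for ssc-miR-190b 10.94 ± 2.72 (edgeR adjusted p = 0.0813 for both), for ssc-miR-122 6.86 ± 2.04 (adjusted p = 0.156) and for ssc-miR-429 7.14 ± 2.41 (adjusted p = 0.169). None of the 187 known miRNAs tested in that model was under an adjusted 0.05, as was the case for all 445 entries (0%), while 31 of the 187 (16.6%) and 63 of the 445 (14.2%) had an unadjusted P under 0.05. ssc-miR-215 and ssc-miR-194a had differences of -0.69 ± 2.05 and 0.67 ± 2.01 (edgeR adjusted p = 0.972 for both), in which the standard error leaves a wide range.

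**Figure D5:**
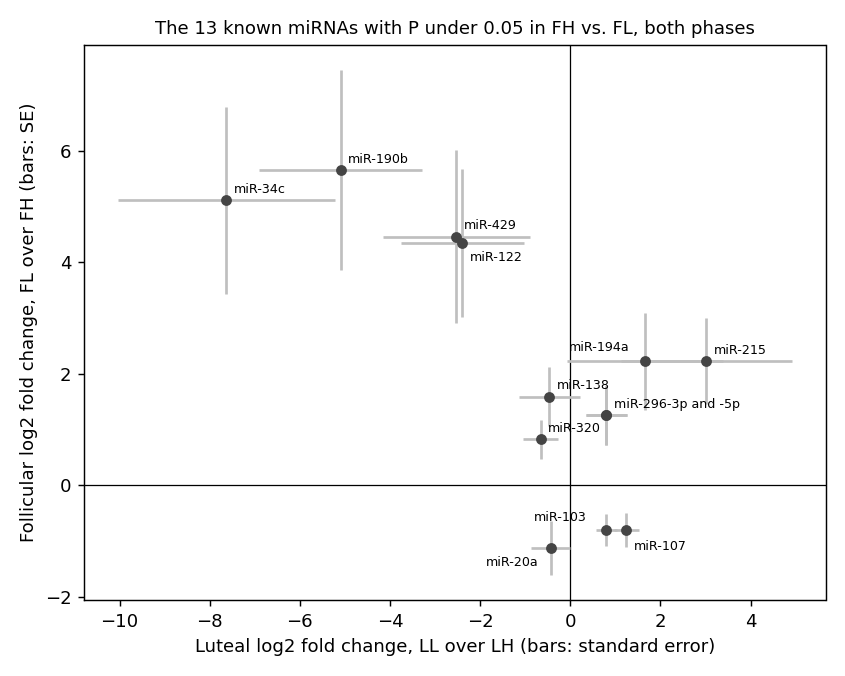
Luteal (LL over LH, x axis) against follicular (FL over FH, y axis) log2 fold change of the 13 known miRNAs with a P under 0.05 in FH vs. FL, with standard errors as bars. ssc-miR-34c lies at -7.63 and 5.12, ssc-miR-107 at 1.25 and -0.80, and ssc-miR-215 at 3.02 and 2.23.

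Of the 24 known miRNAs that could not be tested, 20 were under 3 CPM in every follicular library, and 5 of the 203 had no count in any of the 8. All 8 libraries held a count for 166 of the 203. Another 13 were listed at 0 in some follicular libraries and at 10 CPM or more in another, 9 of them tested. ssc-miR-196b was above 0 only in FH1 (134 CPM) and FL1 (24.9 CPM), while ssc-miR-196b-5p was above 0 only in the other 6 libraries, so that 1 of these entries was filled in each library and never both. ssc-miR-218-5p was at 0 in 4 libraries, although the entry ssc-miR-218 had counts in all 8. ssc-miR-29c was above 0 only in FH4 and FL3, where it reached 504 CPM. ssc-miR-142-5p, a leukocyte miRNA, was at 0 only in FL1, and ssc-miR-99b was at 0 in FH1 and FL4 and reached 1358 CPM elsewhere. The others were ssc-miR-361-5p, ssc-miR-4334-5p, ssc-miR-1306-5p, ssc-miR-331-5p, ssc-miR-18a, ssc-miR-4331 and ssc-miR-664-5p. None of the 10 called miRNAs was among them. How reads were assigned to these entries was not tested.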

How the data were processed

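Ovarian small RNA libraries of 16 sows (4 each of LH, LL, FH and FL, grouped by the labels) had been sequenced on an Illumina HiSeq X10 after preparation with a NEBNext kit, in which PCR copies are not marked. The authors trimmed reads with Trimmomatic, mapped them to Sscrofa10.2 with Bowtie2 2.1.0 and predicted further miRNAs with miRDeep. They deposited raw counts of reads per miRNA and library, without normalization. The rule for dividing reads between similar or overlapping entries is not given in the sources used here. Known and predicted entries stood in 1 table, and 0 columns of it were unused.

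The whole table was fitted for FH vs. FL by the quasi-likelihood test of edgeR 4.0.16 (R 4.3.3), after TMM normalization and edgeR's filter (minimum count 10, minimum total 15), with fold changes coded as FL over FH. Exact two-sided permutation tests used log2(CPM + 1). The luteal contrast was fitted alike, and the interaction in a model of 16 libraries. The fits were checked on simulated counts, drawn with 1 dispersion per miRNA for both groups and independently for each library. These counts lack the wider spread of FL and the libraries FL2 and FL4 that stood apart together. Error rates in the real libraries therefore cannot be read from them. With no change built in, edgeR put 11 of 281 entries past the threshold and DESeq2 15. Under an adjusted 0.05 these were 0 in edgeR and 2 in DESeq2. With 176 of 274 tested entries changed, edgeR recovered 111 at the threshold with 3 false, and DESeq2 123 with 4 false. Alternatives were DESeq2 1.42.0, other scalings and filters, a replicate block, covariates (parity, clean read share), collapsed duplicates, and leaving out sows, with their effects given at the end. The 203 miRNAs, the lists and the rules for naming were chosen with earlier results of these data known. Named were all miRNAs past the threshold, those with a P under 0.05 and a smaller fold change, those without overlap between groups, the 10 most abundant and leading members of the lists. Others (ssc-miR-326, the predicted entries, and those at 0) were chosen after their values were seen. Gene neighbours are from RefSeq (Sscrofa11.1), names only. Depth limits each level to at least 0.0807 to 0.333 CPM, and separate sows make each library a biological replicate.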

Additional observations from a re-analysis of the deposited data

Results flagged for a closer look

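Of 118 groups of 4 sows tested for a sow far from the other 3 (Dixon's test at the 95% level), 3 stood out, and chance alone gives about 1 in 20 such groups. ssc-miR-429 was lowest in FH1, at 1.58 CPM beside 3.67 to 3.99 CPM in the other FH sows. ssc-miR-4334-3p was lowest in FH3, at 560.0 CPM beside 573 to 576 CPM in the others, a gap of a few percent. ssc-miR-125a was lowest in FL4, at 1613 CPM beside 2439 to 2645 CPM in the other FL sows.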

How the results depend on the processing

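The 10 miRNAs past the threshold became 3 when adjusted for parity, 1 when adjusted for the share of reads passing cleaning and 1 without FL2 and FL4 together, with none of the original 10 among them in any of these fits. Without FL2 and FL4 the whole table had 7 of 387 past it, beside the 1 of 184 known miRNAs. Those past it when adjusted for parity were ssc-miR-218-5p, ssc-miR-335 and ssc-miR-212. Adjusted for the read share it was ssc-miR-194b-5p, and without FL2 and FL4 ssc-miR-452. Whole-table counts for the fits with a covariate or with a single sow left out are not given here. Adjusting for parity left the fold changes of ssc-miR-34c, ssc-miR-190b, ssc-miR-429, ssc-miR-138, ssc-miR-215 and ssc-miR-194a about as large (5.42, 5.49, 4.57, 1.73, 1.96 and 2.09), whereas adjusting for the read share lowered them to 0.48, 1.86, 1.14, 1.34, 0.65 and 0.23. With a sow left out in turn the number of known miRNAs past the threshold ran from 4 (without FL4, and 5 without FL2) to 22 (without FL1). It was 6 without FH3. With the replicate number as a block it was 1 (ssc-miR-20a). The labels do not say how the replicate numbers were assigned. The correlations of same-numbered deviations from the group means were -0.246, -0.0911, 0.146 and -0.167. So few values cannot show whether same-numbered sows were handled together. DESeq2 kept all 10 and edgeR with RLE factors did too, library size only 9, TMM on known miRNAs 9, a stricter filter 9, all 16 libraries 8, duplicates collapsed 8 and no filter 6. Under an adjusted p of 0.05 the count was 0 in every edgeR fit and 4 in DESeq2, beside 11 of 301 entries of the whole table in DESeq2. The 10 miRNAs without overlap, whose share over all miRNAs tested is given only for the main fit, fell to 3 with library size only. Without FL2 and FL4 there were 25, and with a sow left out 9 to 33 (33 without FL1, 19 without FH2, 17 without FH4, 16 without FH1), but smaller groups overlap less often by construction, so these counts cannot be set against the 10. Among the 10 called miRNAs the direction reversed only without FL2 and FL4, for ssc-miR-34c (-0.997), ssc-miR-429 (-0.43), ssc-miR-194a (-0.28) and ssc-miR-190b (-0.18). The cause was not tested. No interaction changed its side of an adjusted 0.05 with library size only or without FL2 and FL4, and no exact permutation p did so with a pseudocount of 0.1. With 4 sows a group the exact test cannot go below 0.0286, and parity runs with the groups, so that the part of either cannot be told apart.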
